A study of Mus musculus with 4 samples.

Results

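Interleukins are secreted proteins that carry signals between leukocytes and between leukocytes and cells of the vessel wall. Each binds a cell surface receptor built of a ligand-specific chain and, in most cases, a chain shared with other interleukins. Chains of the IL-1 and IL-18 receptors signal through the adaptor MyD88, those of the IL-17 receptors through Act1 (Traf3ip2), and most others through Janus kinases and STAT transcription factors. In atherosclerotic arteries, IL-1 and IL-6 are best known as drivers of inflammation and IL-10 as a restraint on it.

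The genes described here are those whose symbol begins with Il and a digit, taken from array rows annotated with exactly 1 symbol. There were 78 such genes among the 22180 genes with a row of their own, of which 37 encode ligands, 36 encode receptor chains, 4 encode an antagonist or a soluble binding protein and 1, Il1bos, has an antisense-type symbol. Il1rap was the only member with more than 1 row, and the row with the highest mean of its 3 was kept. Il1rl1, Il2rg and Il11ra1, chains of the IL-33, common gamma chain and IL-11 receptors, were not analysed here.

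The cells were primary vascular smooth muscle cells (VSMCs) from the aorta of mice, with 2 arrays per group. The control group was SM22α-Cre(-) Mmp14(fl/fl) Apoe(-/-) and the knockout group SM22α-Cre(+) Mmp14(fl/fl) Apoe(-/-). Both groups therefore carried floxed Mmp14, which encodes the membrane-anchored collagenase MT1-MMP, and both lacked Apoe, a lipoprotein component whose loss raises plasma cholesterol. The Western diet lasted 3 months in both groups, and the cells were in culture for 5 days after the adventitia was stripped off and the tissue digested with collagenase. The SM22α (Tagln) promoter is used to drive Cre in smooth muscle. Whether Mmp14 was also deleted in other cell types of a culture was not tested. Ages were not given in the sources used here. By the title, the comparison asks how expression in these Apoe-null cells depends on MT1-MMP.

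The arrays read Mmp14 at log2 values of 8.71 and 9.05 in control cells and 8.27 and 8.19 in knockout cells, a difference of -0.65 (SE 0.17) that did not pass the test over all genes (limma, adjusted p = 0.319). Its row can include probes outside the deleted part, which limits it as a check of the labels. Smooth muscle markers were present in both groups: all 10 of those listed were at or above the filter level, with Acta2, smooth muscle alpha actin, between 10.9 and 11.4 over the 4 arrays. Macrophage markers were present as well. Of 18 listed, 17 were at or above the filter level, with only Cd163 below it. All 17 were higher in knockout cells, 16 of them (94.1%) without overlap between groups, against 16.7% of all tested genes. The mean log2 level over the 18 was 6.80 and 6.85 in control cells and 7.82 and 8.07 in knockout cells. Endothelial markers went the other way, with mean levels of 5.59 and 5.18 in control cells and 4.35 and 4.38 in knockout cells over 12 genes. Of the 11 tested, 8 (72.7%) were lower, all without overlap, against 27.5% of all tested genes. Kdr was higher by 0.32 without overlap, and Vwf and Flt1, at 0.29 and 0.10, overlapped. Ptprb, Cdh5, Pecam1 and Emcn stood furthest apart, with differences of -2.88, -2.51, -2.49 and -2.48. Fibroblast markers were mixed: of 7 tested, 4 were higher and 3 lower, with differences from -2.40 to 0.74. The part of these shifts in the interleukin results was not tested. In RNA from a whole culture, fewer cells of a type and less RNA per cell cannot be told apart.

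Of the 78 interleukin genes, 31 (39.7%) had a mean at or above the filter level of 3.02, the median of all row means, against 56.6% of all genes. Among ligands the share was 13 of 37 (35.1%) and among receptor chains 16 of 36 (44.4%). Il15 was the only tested member whose mean reached the level in just 1 group, with 2.99 in control cells and 3.41 in knockout cells. Among the dim members, Il19, Il1a and Il20rb had a knockout mean above the level but a lower mean over all arrays. Nearest to the level were Il18 (3.35), Il15 (3.20) and Il17d (3.10) just inside, and Il20rb (2.95), Il19 (2.93) and Il13 (2.91) just outside.

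Knockout cultures had higher values of several receptor chains, led by the IL-7 receptor chain Il7r and both IL-10 receptor chains. Of the tested chains 12 were higher and 4 lower, and of the tested ligands 7 were higher and 6 lower. Among all tested genes 41.7% were higher. Among the 31 tested genes, both knockout arrays lay above both control arrays for 12 and below them for 2. Over all tested genes these shares were 16.7% and 27.5%, against 38.7% and 6.45% of the interleukin genes. The share higher without overlap was 43.75% of the tested chains and 30.8% of the tested ligands. The 12 include Il15, whose mean reached the filter level in knockout cells only. No member passed the test over all genes: limma called 0 of 31 at an adjusted p under 0.05, as it did 0% of the 12550 genes tested, and the smallest adjusted p of a member was 0.240. At an unadjusted p under 0.05 there were 7 members higher and 0 lower in knockout cells (22.6% and 0% of the 31), where the background was 4.89% and 6.78%. That count of 7 fell without either control replicate or without knockout replicate 2 and rose without knockout replicate 1. The count over all tested genes moved in the same directions. Each of these fits leaves 1 array in a group. The median difference was 0.22 over the receptor chains and 0.047 over the ligands, beside -0.052 over all tested genes. The order of these medians was not stable: without control replicate 1 they were 0.11 for receptor chains and 0.12 for ligands. Over all members, dim ones included, they were 0.028 and 0.030, and under a stricter filter at the 75th percentile 0.16 and 0.39, the latter over 2 ligands. With 2 against 2 arrays no two-sided exact permutation test can give a p below 0.333.

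**Figure D1:**
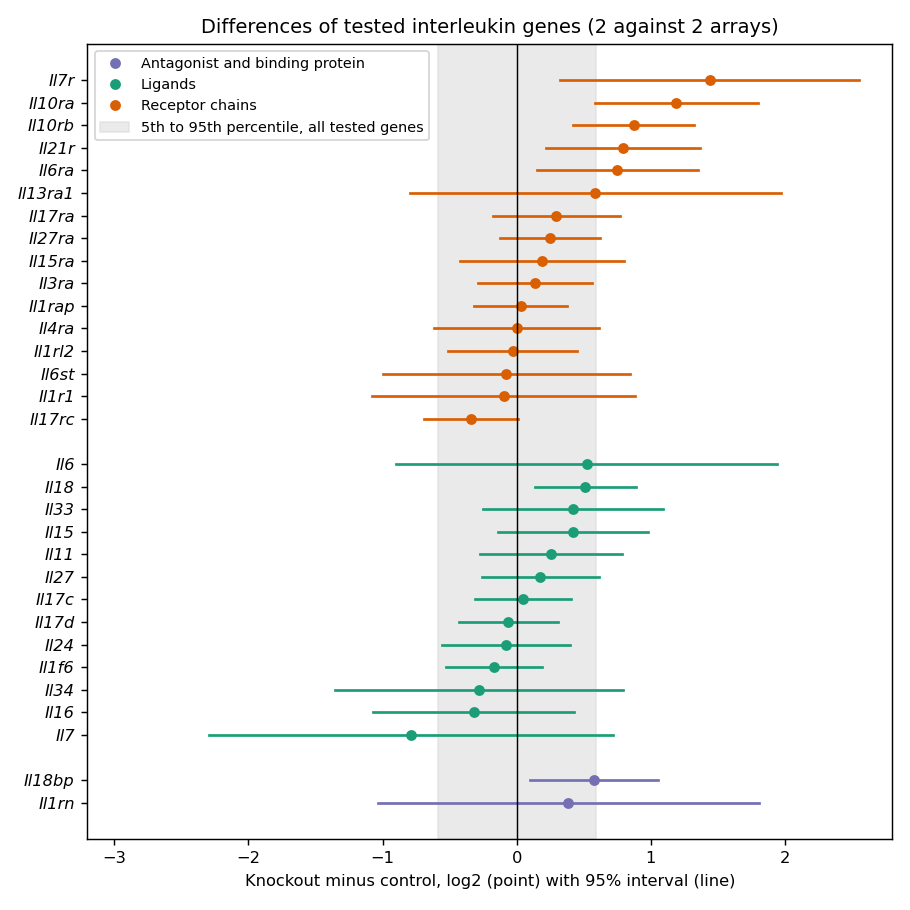
Log2 difference, knockout minus control, of each tested interleukin gene (point) with its 95% interval from limma (line), grouped as receptor chains, ligands and antagonist or binding protein. Grey marks the 5th to 95th percentile of all tested genes, -0.59 to 0.59. The intervals of Il7r, Il10ra, Il10rb, Il21r, Il6ra, Il18 and Il18bp lie above 0, and none lies wholly below 0.

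The receptor for IL-10, a cytokine that damps macrophage activation, is made of Il10ra, which binds the ligand, and Il10rb, which also serves IL-22 and interferon lambda receptors. Il10ra had log2 values of 3.75 and 4.02 in control cells and 4.81 and 5.33 in knockout cells. Its means of 3.88 ± 0.20 and 5.07 ± 0.37 (SD, n = 2 each) differed by 1.19 (SE 0.23, 95% interval 0.58 to 1.80), or 2.28-fold (limma, adjusted p = 0.240). Both knockout arrays were higher than both control arrays, by more than the spread within either group. Il10rb read 6.76 and 6.49 in control cells and 7.40 and 7.60 in knockout cells, a difference of 0.87 (SE 0.17, 95% interval 0.42 to 1.32; limma, adjusted p = 0.243). Again the groups did not overlap. Il10 itself stayed between 2.51 and 2.63 on all 4 arrays, below the filter level.

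Il7r encodes the alpha chain that lymphocytes use to sense IL-7 and that also forms the receptor for TSLP. It had the largest difference of any member, with 6.72 and 7.23 in control cells and 7.84 and 8.98 in knockout cells. The means of 6.98 ± 0.36 and 8.41 ± 0.80 (SD, n = 2 each) differed by 1.44 (SE 0.43, 95% interval 0.32 to 2.55), or 2.71-fold (limma, adjusted p = 0.352). The groups did not overlap, and 99.4% of all tested genes had a lower difference. Knockout replicate 2 was the highest array, and without it the difference was 0.87. Its ligand Il7 was at 5.27 and 3.57 in control cells and 3.49 and 3.78 in knockout cells, so control replicate 1 stood alone above 3 similar arrays. The Il7 difference of -0.79 (SE 0.58) became 0.059 without that array.

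Il21r, which pairs with the common gamma chain to bind the T cell product IL-21, read 3.12 and 3.03 in control cells and 3.60 and 4.13 in knockout cells. The difference was 0.79 (SE 0.22; limma, adjusted p = 0.335), and it was 0.53 without knockout replicate 2. Its control values lay just above the filter level, while its ligand Il21 was below it. Il7r and Il21r are best known from lymphocytes, and T and NK cell markers were dim: 9 of 11 were below the filter level, among them Cd3d, Cd3e, Cd3g and Cd4. Their mean level over the 11 was 2.81 and 2.82 in control cells and 2.94 and 3.08 in knockout cells. The 2 that were tested went opposite ways, 1 at 0.35 without overlap and 1 at -0.29 with overlap. Cd3d, Cd3e and Cd3g, parts of the T cell receptor complex, each had their highest value in knockout replicate 2, at 3.17, 3.56 and 3.16.

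Il6ra is the ligand-binding chain of the IL-6 receptor and Il6st, or gp130, its signalling chain, which IL-11, IL-27 and LIF also use. Il6ra read 4.23 and 4.10 in control cells and 4.63 and 5.20 in knockout cells, a difference of 0.75 (SE 0.23, 95% interval 0.15 to 1.35; limma, adjusted p = 0.356). Its groups did not overlap, and the difference was 0.47 without knockout replicate 2. Il6st read 8.61 and 9.53 in control cells and 9.20 and 8.79 in knockout cells. Its values were interleaved, with a difference of -0.077 (95% interval -0.997 to 0.842) that changed sign when control replicate 2 was left out (0.38). The ligand Il6 was at 8.37 and 7.20 in control cells and 8.87 and 7.74 in knockout cells. The arrays within each group differed by more than the group means, which were 0.52 apart (SE 0.54; limma, adjusted p = 0.756).

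**Figure D2:**
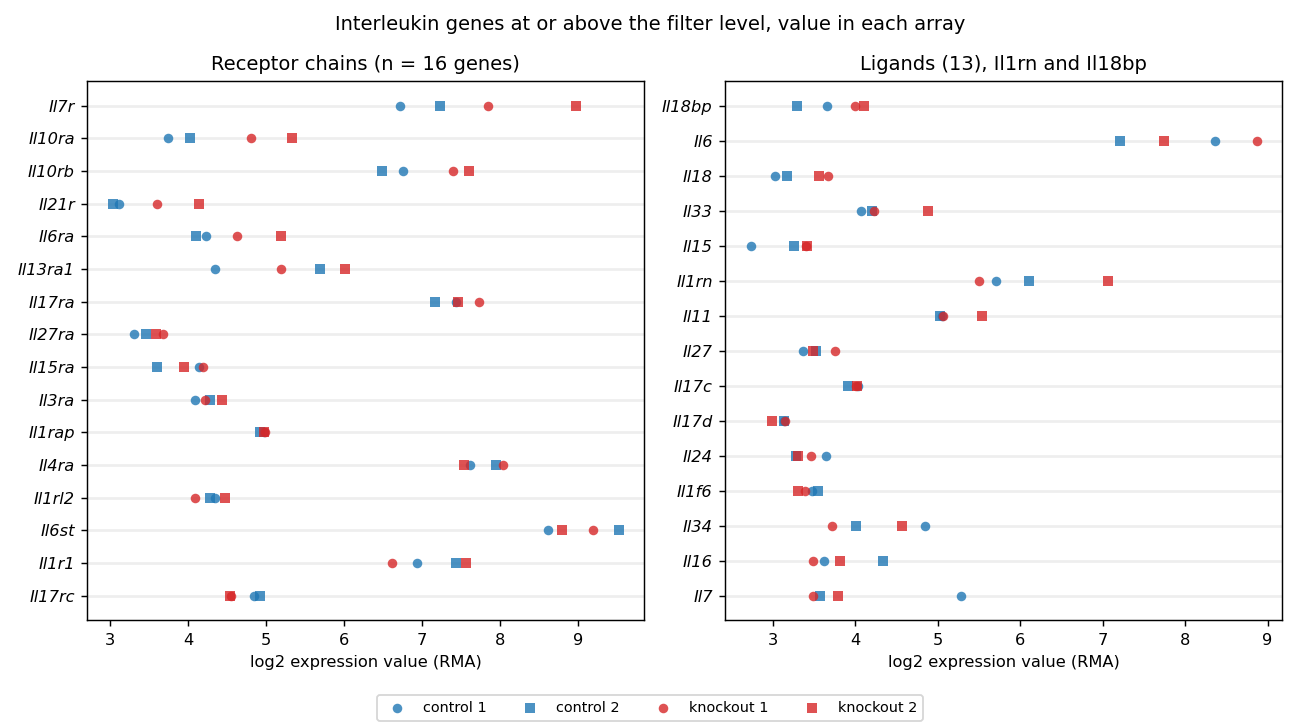
Log2 values of the 31 tested interleukin genes in each of the 4 arrays, receptor chains on the left and ligands with Il1rn and Il18bp on the right, ordered by the difference between groups. Blue marks controls and red knockouts, with circles for replicate 1 and squares for replicate 2. Red and blue separate for Il7r, Il10ra, Il10rb, Il21r and Il6ra and mix for Il4ra, Il6st and Il1r1, and levels of different genes come from different probes and are not comparable.

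IL-18 is made as a precursor that caspase-1 cleaves, and Il18bp, a secreted protein, binds it and blocks it. Il18 read 3.02 and 3.17 in control cells and 3.66 and 3.55 in knockout cells, a difference of 0.51 (SE 0.14; limma, adjusted p = 0.338). Il18bp read 3.66 and 3.29 in control cells and 3.99 and 4.11 in knockout cells, a difference of 0.58 (SE 0.18; limma, adjusted p = 0.364). The cytokine and its inhibitor were thus both higher in each knockout array than in each control array. Without control replicate 2 the Il18bp difference was 0.39. The receptor chains Il18r1 and Il18rap were both below the filter level.

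The IL-1 receptor consists of the ligand-binding chain Il1r1 and the accessory protein Il1rap, and Il1rn encodes the antagonist that occupies Il1r1 without signalling. Il1r1 read 6.93 and 7.44 in control cells and 6.61 and 7.57 in knockout cells, a difference of -0.097 (95% interval -1.08 to 0.88). Il1rap stayed between 4.92 and 4.98, a difference of 0.028 (95% interval -0.32 to 0.37). Neither chain separated the groups, and the Il1rap sign turned when arrays were centred on their median. Il1rn read 5.70 and 6.10 in control cells and 5.50 and 7.07 in knockout cells, so knockout replicate 2 was the highest and knockout replicate 1 the lowest array. Its difference of 0.38 (SE 0.54) was -0.40 without knockout replicate 2. The ligands Il1a and Il1b and the decoy receptor Il1r2 had means below the filter level, and Il1b was between 2.74 and 2.86 on all arrays.

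Il4ra is the chain shared by the IL-4 and IL-13 receptors, and Il13ra1 joins it to form the receptor found on non-lymphoid cells. Il4ra read 7.62 and 7.95 in control cells and 8.04 and 7.54 in knockout cells. Its means of 7.79 ± 0.23 and 7.79 ± 0.35 (SD, n = 2 each) differed by 0.0004 (95% interval -0.61 to 0.62), a value whose sign turned when arrays were centred on their median. Il13ra1 read 4.34 and 5.69 in control cells and 5.19 and 6.01 in knockout cells, with a difference of 0.59 (95% interval -0.80 to 1.97) and overlapping groups. For Il13ra1 the SD between control arrays, 0.95, was wider than the shift between genotypes. Il4, Il13 and the decoy chain Il13ra2 were below the filter level.

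IL-17A and IL-17F act through a receptor of Il17ra and Il17rc. Il17ra read 7.43 and 7.16 in control cells and 7.73 and 7.46 in knockout cells, and Il17rc 4.84 and 4.91 in control cells and 4.54 and 4.53 in knockout cells. Il17ra was higher by 0.29 (SE 0.18; limma, adjusted p = 0.581) and Il17rc lower, at -0.34 (SE 0.13; limma, adjusted p = 0.440), each without overlap, so the partner chains lay on opposite sides of 0. The Il17ra difference was 0.16 without knockout replicate 1 or without control replicate 2. Il17rc was the only tested receptor chain with both knockout arrays below both control arrays. Il17a and Il17f were below the filter level, as were the chains Il17rb, Il17rd and Il17re.

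For the other ligands the 95% intervals included 0. Il33, an alarmin released from the nucleus of damaged cells, read 4.07 and 4.20 in control cells and 4.22 and 4.88 in knockout cells, a difference of 0.42 (SE 0.26). Il15, presented to lymphocytes on its chain Il15ra, read 2.73 and 3.25 in control cells and 3.40 and 3.41 in knockout cells, also a difference of 0.42 (SE 0.21). Il11, a gp130 cytokine known from fibroblasts, read 5.05 and 5.03 in control cells and 5.06 and 5.53 in knockout cells, a difference of 0.26 (SE 0.20). In these 3 genes the groups did not overlap, and for Il33 and Il11 the gap rested on knockout replicate 2: without it the differences were 0.089 and 0.021. The Il15 difference was 0.16 without control replicate 1 and 0.68 without control replicate 2. Il34, a ligand of the macrophage receptor Csf1r, read 4.85 and 4.002 in control cells and 3.72 and 4.57 in knockout cells. Il16, a chemoattractant for CD4-bearing cells, read 3.62 and 4.33 in control cells and 3.49 and 3.81 in knockout cells. Both overlapped, with differences of -0.28 (SE 0.41) and -0.32 (SE 0.29). Il15ra also overlapped, at 4.14 and 3.60 in control cells and 4.18 and 3.94 in knockout cells, a difference of 0.19 (SE 0.23).

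The remaining tested members were Il1f6, Il17c, Il17d, Il24 and Il27 among the ligands and Il1rl2, Il27ra and Il3ra among the chains. Their differences ran from -0.17 (Il1f6, an IL-36 ligand, the only tested ligand lower without overlap) to 0.25 (Il27ra, higher without overlap). Over all 31 tested members, 19 had a larger group SD above the size of their difference.

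The 47 members below the filter level were given no test. They comprised the ligands Il1a, Il1b, Il1f8, Il1f9, Il1f10, Il2, Il3, Il4, Il5, Il9, Il10, Il12a, Il12b, Il13, Il17a, Il17b, Il17f, Il19, Il20, Il21, Il22, Il23a, Il25 and Il31. The dim chains were Il1r2, Il1rapl1, Il1rapl2, Il2ra, Il2rb, Il5ra, Il9r, Il12rb1, Il12rb2, Il13ra2, Il17rb, Il17rd, Il17re, Il18r1, Il18rap, Il20ra, Il20rb, Il22ra1, Il23r and Il31ra. Il1f5, Il22ra2 and Il1bos completed the group. Their values ran from 1.46 to 4.50 and their differences from -0.37 to 1.08, with 8 of the 47 higher and 10 lower in knockout cells without overlap, where all genes below the level gave 19.5% and 15.1%. With no filter, the counts without overlap were 20 higher and 12 lower of 78, where all genes gave 17.9% and 22.1%.

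Sorted into 20 ligand and receptor systems by their members analysed here, 5 had a ligand and every chain at or above the filter level: IL-6, IL-7, IL-11, IL-27 and IL-36. IL-10, IL-21 and IL-3 had all chains but no ligand there. IL-2, IL-5, IL-9, IL-31 and the IL-12 and IL-23 group had neither. Chains not analysed here, such as Il11ra1 and Il2rg, and chains without an Il symbol, such as Csf2rb, were not counted. IL-11 was therefore judged on the shared Il6st alone, and IL-7, IL-21 and IL-3 on 1 chain each. The loci for many members adjoin one another, with no other protein-coding gene between them on the RefSeq assembly GRCm38.p6. In the run of Il24, Il20, Il19 and Il10, 1 of 4 genes reached the level (Il24), and in the run of Il1f8, Il1f9, Il1f6, Il1f5, Il1f10 and Il1rn, 2 of 6 did. Il4ra and Il21r are neighbours and both reached it, with differences of 0.0004 and 0.79.

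Promoter windows from RefSeq (GRCm38.p6), 250 bases before to 50 after each annotated start, were matched for 61 of the 78 members and for 21 of the 31 tested. They are shown for 4 of the genes that were higher in knockout cells without overlap, and for Il6, whose window holds 2 of the motifs searched. Capitals mark motif matches on either strand. Il7r lies at chr15:9529827-9530126 on the minus strand, Il21r at chr7:125603179-125603478 on the plus strand, Il6ra at chr3:89913147-89913446 on the minus strand, Il18 at chr9:50554450-50554749 on the plus strand and Il6 at chr5:30012864-30013163 on the plus strand.
Il7r: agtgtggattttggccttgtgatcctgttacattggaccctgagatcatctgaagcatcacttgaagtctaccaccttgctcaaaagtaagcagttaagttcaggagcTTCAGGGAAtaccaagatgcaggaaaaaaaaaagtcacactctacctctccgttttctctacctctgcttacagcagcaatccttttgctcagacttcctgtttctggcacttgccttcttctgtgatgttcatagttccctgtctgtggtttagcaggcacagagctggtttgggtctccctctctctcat
Il21r: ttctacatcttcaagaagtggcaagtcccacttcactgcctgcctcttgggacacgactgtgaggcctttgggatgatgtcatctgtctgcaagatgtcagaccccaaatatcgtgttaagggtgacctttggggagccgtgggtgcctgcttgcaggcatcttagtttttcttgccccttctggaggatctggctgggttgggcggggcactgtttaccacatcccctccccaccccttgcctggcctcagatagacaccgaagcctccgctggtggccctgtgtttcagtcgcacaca
Il6ra: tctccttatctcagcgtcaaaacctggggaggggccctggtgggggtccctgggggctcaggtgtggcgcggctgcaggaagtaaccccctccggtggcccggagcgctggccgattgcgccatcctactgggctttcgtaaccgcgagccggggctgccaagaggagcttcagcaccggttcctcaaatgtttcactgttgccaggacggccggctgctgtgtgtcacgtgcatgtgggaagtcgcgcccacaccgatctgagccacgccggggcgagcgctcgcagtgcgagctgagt
Il18: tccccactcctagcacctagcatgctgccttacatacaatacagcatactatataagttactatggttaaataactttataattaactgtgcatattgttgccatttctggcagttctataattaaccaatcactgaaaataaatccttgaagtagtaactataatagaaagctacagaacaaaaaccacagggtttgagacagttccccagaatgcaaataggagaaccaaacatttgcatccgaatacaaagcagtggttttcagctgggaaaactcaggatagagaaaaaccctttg
Il6: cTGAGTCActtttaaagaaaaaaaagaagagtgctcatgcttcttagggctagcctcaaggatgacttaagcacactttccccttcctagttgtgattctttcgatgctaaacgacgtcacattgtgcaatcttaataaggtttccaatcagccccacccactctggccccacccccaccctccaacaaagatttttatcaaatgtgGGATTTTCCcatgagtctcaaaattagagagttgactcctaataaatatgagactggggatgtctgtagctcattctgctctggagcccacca

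The motifs searched on both strands were GAGGAAG (PU.1 type), TTCNNNGAA (STAT type), GGANTTTCC (NF-kB type) and TGANTCA (AP-1 type). In the printed windows, Il7r held a STAT-type match, starting at -142 when the first transcribed base is 0, and Il6 held an NF-kB-type match at -43 and an AP-1-type match at -249. The windows of Il21r, Il6ra and Il18 held no match, and no matches overlapped in the 5 windows. Over the 29 windows of tested members, some of which share sequence, the NF-kB type occurred in 3 (10.3%), against 1.25% of all 32851 windows. These belonged to Il16, Il1rl2 and Il6, whose groups all overlapped. The PU.1 type occurred in 2 of 29 (6.90%) against 13.6%, the STAT type in 2 (6.90%) against 8.30% and the AP-1 type in 5 (17.2%) against 7.81%. A match of letters is a description of the window, not of binding.

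Genes that work with these receptors were examined by lists chosen with earlier results of these data known. Of the partner ligands and chains without an Il symbol, 15 were tested, 12 higher and 3 lower in knockout cells, with a median of 0.15. Over all tested genes, 41.7% had a higher mean in knockout cells. Csf1r, which binds IL-34, read 6.71 and 6.32 in control cells and 7.68 and 7.65 in knockout cells, a difference of 1.15 (SE 0.18; limma, adjusted p = 0.187). Csf2rb, which pairs with the IL-3 chain Il3ra, was higher by 0.76 and its relative Csf2rb2 by 1.48, whereas Il3ra itself differed by 0.14 with overlap. Csf2ra was higher by 0.64. Csf1r is also one of the macrophage markers.

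JAK, STAT and SOCS genes were mixed, with 15 of 20 tested higher and a median of 0.14. Jak2, a kinase of many cytokine receptors, read 5.65 and 5.85 in control cells and 6.76 and 6.52 in knockout cells, a difference of 0.89 (SE 0.17; limma, adjusted p = 0.230). Ptpn6, the phosphatase SHP-1 of blood cells, was higher by 1.57. Cish and Socs2, feedback inhibitors that STAT5 induces, lay on the other side. Cish read 6.52 and 5.96 in control cells and 4.56 and 5.41 in knockout cells, a difference of -1.25 (SE 0.36; limma, adjusted p = 0.339). Socs2 differed by -1.02. The other SOCS genes lay on both sides of 0. Socs3, Socs4, Socs1 and Socs6 differed by 0.68, 0.12, 0.076 and 0.047, and Socs5 and Socs7 by -0.57 and -0.31. Il7r was higher and Cish and Socs2 lower in the same arrays, and a link between them was not tested.

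The MyD88 and IL-17 adaptor list had 12 of 23 tested members higher and a median of 0.026. Rel, an NF-kB subunit, was higher by 0.93 and Irak2, a MyD88-associated kinase, by 0.58, while Traf3ip2, the adaptor of IL-17 receptors, differed by -0.67 and Nfkbiz by -0.39. The inflammasome list, whose products process IL-1β and IL-18, had 7 of 8 tested members higher and a median of 0.41. Among the 7, Nlrp1b overlapped, and its mean reached the filter level in knockout cells only, 2.86 in control cells and 3.22 in knockout cells. Casp1 read 5.51 and 5.81 in control cells and 6.81 and 6.59 in knockout cells, a difference of 1.04 (SE 0.18; limma, adjusted p = 0.205). Aim2, Pycard and Gsdmd were higher by 0.96, 0.87 and 0.47, each without overlap. So was the caspase-1 substrate Il18, whereas Il1b remained dim.

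Among genes that IL-1, IL-6 or IL-17 induce, 8 of 12 tested were higher and 4 lower, with a median of 0.097. Among the 8, the mean of Cxcl1 reached the filter level in knockout cells only, 2.94 in control cells and 3.37 in knockout cells. Saa3, an acute-phase protein, read 3.35 and 5.99 in control cells and 7.31 and 6.96 in knockout cells, a difference of 2.46 (SE 0.87; limma, adjusted p = 0.398), and the chemokine Cxcl5 differed by 1.15. Vcam1, a leukocyte adhesion molecule, and Ptgs2, the cyclooxygenase COX-2, differed by -1.20 and -0.69. The induced genes thus lay on both sides of 0. Of 13 genes induced by IL-4 and IL-13, 7 were below the filter level. Of the 6 tested, 4 were higher, with a median of 0.85, against 41.7% of all tested genes. Among the 4, Ccl22 had a mean that reached the level in knockout cells only, 3.01 in control cells and 4.62 in knockout cells. It read 2.59 in knockout replicate 1 and 6.65 in knockout replicate 2, and the groups overlapped. Both knockout arrays lay above both controls for 2 of the 6, Mrc1 at 2.08 and Arg1 at 1.11, against 16.7% of all tested genes. Mrc1 is also on the macrophage list, whose median was 1.16.

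**Figure D3:**
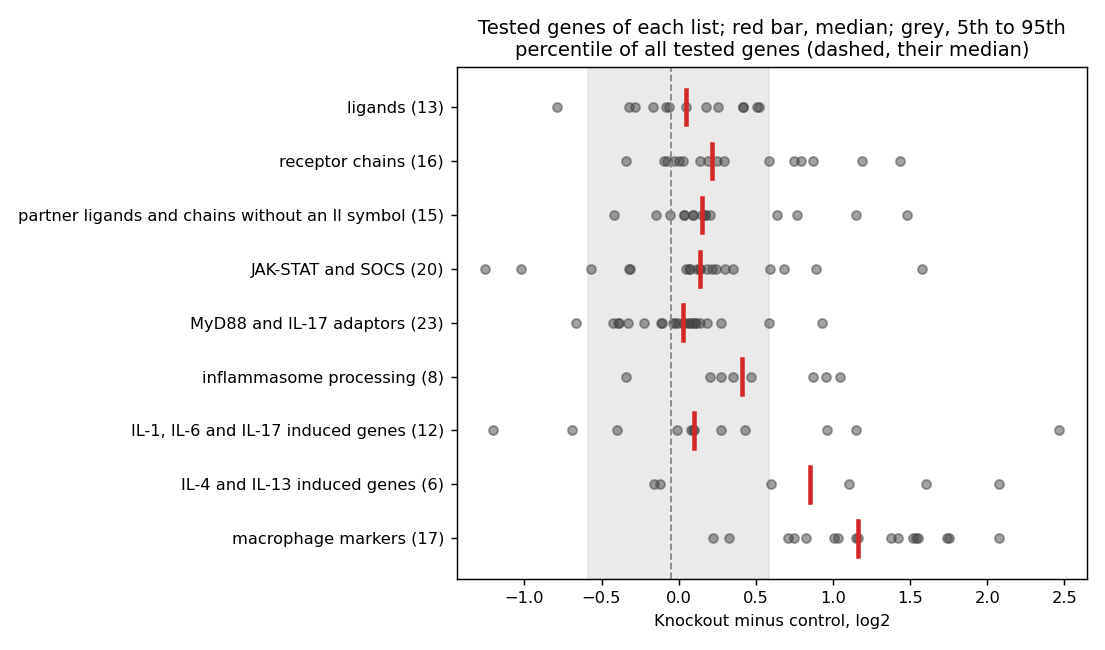
Log2 difference, knockout minus control, of each tested gene (point) in the ligand, receptor chain, signalling, induced-gene and macrophage marker lists, with the number tested in parentheses. Red bars are list medians, from 0.026 for the MyD88 and IL-17 adaptors to 1.16 for the macrophage markers, and the dashed line is the median of all tested genes, -0.052.

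The 7 members with an unadjusted p under 0.05 were picked for their difference. All 7 were higher in both knockout arrays than in both control arrays, which that choice makes likely. The mean of the 18 macrophage markers was also higher in both knockout arrays, while Mertk and Cd163 among these markers overlapped. Deviations were taken from each gene's mean over the 4 arrays. For the macrophage markers they averaged -0.59 and -0.53 log2 units in control cells and 0.44 and 0.68 in knockout cells. Those of 11 T and NK cell markers, 9 of them below the filter level, went the same way by less. They averaged -0.099 and -0.091 in control cells and 0.024 and 0.17 in knockout cells. In knockout replicate 2, 6 of the 7 members were higher than in knockout replicate 1, Il18 being the exception. The share of all tested genes higher in that array was not counted. The mean of the 10 smooth muscle markers did not separate the groups, with deviations between -0.22 and 0.19. Of the 10 genes, 3 (30%) were lower in knockout cells without overlap, against 27.5% of all tested genes. The part of the macrophage and the T and NK cell markers in the 7 members was not tested.

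**Figure D4:**
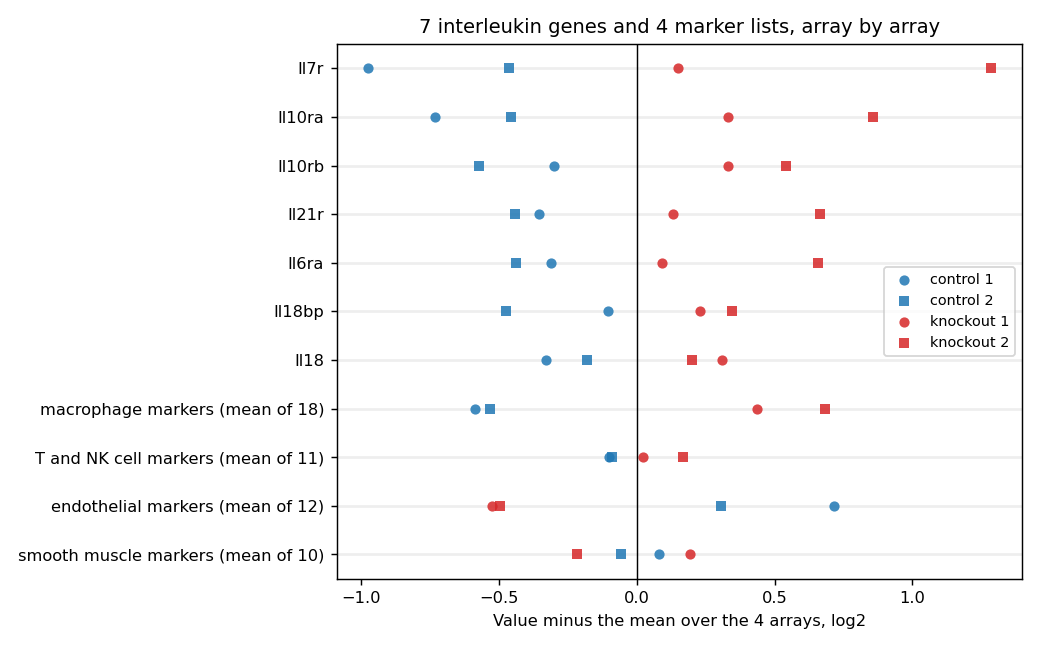
Log2 value of each array minus the mean over the 4 arrays, for the 7 interleukin genes with an unadjusted p under 0.05 and for the mean of 4 marker lists. Controls (blue) lie below 0 and knockouts (red) above it for the 7 genes, which were picked for that difference. The mean of the macrophage markers and, by less, that of the T and NK cell markers lie the same way. The endothelial mean lies the other way, and the smooth muscle mean mixes.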

How the data were processed

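RNA of the 4 cultures was amplified from 10 ng and hybridised to Mouse Gene ST arrays, per the labels' protocols. The deposited log2 values had been background-corrected, normalised and summarised with RMA, per the submitters' processing notes. Sources used here give no software version, chip definition or genome build. Depth does not apply to arrays, whose number limits the precision. The arrays of a group came from different mice, per the design text, so the p-values reflect mouse, culture and array variation at the same time.

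Of 41345 rows, 23521 had 1 symbol, 1814 several and 16010 none in the platform annotation. The NCBI gene numbers of 23328 matched RefSeq, and 0 symbols changed. Per gene the row with the highest mean was kept, and the 12550 genes with a mean of at least 3.02 entered a limma 3.58.1 fit (R 4.3.3) of knockout minus control with no covariate and Benjamini-Hochberg adjustment over all of them. Intervals are 95% intervals of that fit. Figures were drawn with matplotlib 3.10.9. On simulated data for this comparison (12550 genes) changes of 1 log2 unit were called in 3 of 50 genes, of 2 units in 44 of 50, of 3 units in 46 of 50 and of 4 units in 47 of 50, beside 11 false calls. In the measured arrays 0 genes were called, although Mrc1 differed by 2.08 and the furthest endothelial marker by -2.88. Rates from the simulation may therefore not carry over to these arrays.

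The members and lists were chosen with earlier results of these data known. The tested members given array by array are those without overlap and with an absolute difference of at least 0.5, or in the IL-1, IL-33, IL-18, IL-6 and IL-11, IL-4 and IL-13, IL-10, IL-34, IL-15 and IL-7, IL-17, IL-16 or IL-21 systems. From each pathway list up to 4 genes without overlap and with the largest difference were named. Il1f6, Il27ra and Il3ra, the dim genes given with values, Acta2, Cd163, Mertk, Kdr, Vwf, Flt1 and the T cell genes fall outside these rules. So do Ccl22, Cxcl1, Nlrp1b and the SOCS genes other than Socs2. The values of all of them were known when they were picked. Alternatives comprised a replicate block by title number, other filters, scalings, row summaries and variance models, and leaving out each array.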

Additional observations from a re-analysis of the deposited data

How the results depend on the processing

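The 2 arrays per group limit every value, and limma called 0 genes in every setting run, beside 1465 of 12550 at an unadjusted p under 0.05 in the reported fit. The 23 genes given array by array kept their direction in 170 of 172 fits with another processing. Most of these fits could not turn it, since the block, filters and variance models leave each difference unchanged. Averaging the rows of a gene could move only Il1rap, and rescaling the arrays could move all 23. The exceptions came with arrays centred on their median, where Il1rap was at -0.0027 and Il4ra at -0.030. In that setting 7 members were higher and 1 lower at an unadjusted p under 0.05, beside 1526 of 12550 genes in either direction. With no filter on dim genes 9 members were higher and 1 lower at that p, beside 2125 of 22180 genes in either direction. Without overlap 20 of the 78 were higher and 12 lower, where all genes gave 17.9% and 22.1%. The receptor median was then 0.028 and the ligand median 0.030. With the 75th percentile filter, which left 11 members, 2 were higher and 0 lower at that p, beside 929 of 6787 genes in either direction. Under this filter the ligand median was 0.39 over 2 genes and the receptor median 0.16.

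Leaving out each array in turn, the members at an unadjusted p under 0.05 numbered 3 to 8 higher and 0 to 1 lower, and 17 to 18 were higher and 4 to 8 lower without overlap, since fewer arrays overlap less. The receptor median ran from 0.11 to 0.28 and the ligand median from 0.011 to 0.12. The sign turned in 15 of 92 such fits, for 10 genes, whose differences ran from -0.086 to 1.26 (Il13ra1), -0.082 to 0.46 (Il15ra), -0.68 to 0.036 (Il16), -0.57 to 0.38 (Il1r1), -0.40 to 1.17 (Il1rn), -0.70 to 0.14 (Il34), -0.25 to 0.25 (Il4ra), -0.059 to 1.10 (Il6), -0.54 to 0.38 (Il6st) and -1.64 to 0.059 (Il7).

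With the title number as a replicate block, 9 of 31 members were higher and 0 lower at an unadjusted p under 0.05, and 0 were called. Over all genes 1527 of 12550 reached that p in either direction. Same-numbered arrays deviated together with r = 0.045 over 12550 tested genes, which are not independent. Though the design text names 2 pairs of mice, the labels do not say that a title number marks a pair. The block was therefore kept as an alternative.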

Other observations

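Knockout replicate 2 held the highest value of several genes that were dim or mixed elsewhere, chosen here after their values were seen. Il1a, which encodes IL-1α, read 2.28 and 2.45 in control cells, 2.40 in knockout replicate 1 and 4.50 in knockout replicate 2. Mmp8, the neutrophil collagenase, read 3.32 in both controls, 3.16 in knockout replicate 1 and 5.40 in knockout replicate 2, and S100a8, an alarmin subunit of neutrophils and monocytes, 4.96 and 5.43, then 4.72 and 6.67. Cd22, a B cell lectin, read 3.74 and 3.84 in control cells and 4.07 and 5.53 in knockout cells, while the B cell genes Cd79a, Cd79b, Ms4a1 and Pax5 were below the filter level on average. Mast cell and basophil markers were dim in 9 of 10 cases, with Mcpt8 at 4.56 and 3.41 in control cells and 5.83 and 3.41 in knockout cells.

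Of the 47 members below the filter level, 8 were higher and 10 lower in knockout cells without overlap. All genes below that level gave 19.5% and 15.1%. Il9, a product of T helper and innate lymphoid cells, read 2.54 and 2.35 in control cells and 3.14 and 2.75 in knockout cells, a difference of 0.50. Il19, of the IL-10 family, was at 2.79 and 2.75 in control cells and 3.13 and 3.04 in knockout cells, a difference of 0.32. On the lower side Il22ra1, a chain of the IL-22 receptor, went from 2.95 and 2.70 in control cells to 2.35 and 2.55 in knockout cells, a difference of -0.37. Il1f9, an IL-36 ligand, and Il23a, a subunit of IL-23, differed by -0.31 and -0.24. These genes were chosen after their values were seen.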
